A study of Mus musculus with 8 samples.

Results

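The 10 genes followed here are named for skeletal muscle or its wasting: Fbxo32, Trim63, Apobec2, Ckm, Acta1, Mylpf, Tnnt3, Tnni2, Tnnc2 and Actn3. They were chosen from their measured values on these arrays and from their names, with the age difference known, so their age differences are given as a description. No p-value is given for the age difference of a member. Counts of members past a threshold stand beside the share of the whole array, except under the alternative settings, where the share of probe sets was not counted. The question asked of them was whether Fbxo32 and Apobec2 were lower at 14 months with, or apart from, genes of fast muscle fibres. Members were all probe sets that carry 1 of these symbols and no other, which gave 16 of 45037 probe sets and 10 of 18193 genes. A probe set is a group of short probes on the array that reads 1 transcript, and some genes have several. Affymetrix Mouse Genome arrays measured total RNA of the distal trachea and carina region, 1 array per mouse. The groups were 4 old mice of 14 months and 4 young mice of 2 months, all females of the C57Bl/6 strain, with no treatment or engineered allele in the labels. Values are given in the order of the mouse numbers in the labels, which are 1, 2, 5 and 6 for old and 3, 4, 7 and 8 for young.

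Wasting muscle breaks down its own contractile proteins through the ubiquitin system. Fbxo32 encodes atrogin-1, the subunit that brings substrates to an SCF ubiquitin ligase, and Trim63 encodes MuRF1, a RING ligase of the sarcomere. Both are classic targets of FoxO transcription factors in fasting, denervation and glucocorticoid excess. Apobec2 encodes a muscle-enriched protein of the cytidine deaminase family. The other 7 genes encode parts of the fast fibre: the muscle creatine kinase Ckm, skeletal alpha-actin Acta1, the fast regulatory light chain Mylpf, the fast troponins T, I and C (Tnnt3, Tnni2 and Tnnc2) and the Z-disc protein Actn3. The muscle of the tracheal wall itself is smooth muscle, whereas the neighbouring mouse oesophagus has striated muscle.

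RefSeq promoters (250 bases before the start of the gene to 50 after it, build GRCm38.p6) were at hand for 6 of the 10 genes. They are Trim63, Apobec2, Ckm, Acta1, Mylpf and Tnnc2, and there was none for Fbxo32, Tnnt3, Tnni2 and Actn3. The E-box CAGCTG, the letters that myogenic factors bind, was in 5 of these 6 windows, all but that of Tnnc2, and in 16.3% of 32851 mouse promoters of the same length. The FoxO motif GTAAACA was in the window of Trim63, among these 6 alone, and in 3.65% of all promoters. The CArG box, the site of serum response factor, was in that of Acta1 alone (1.63% of all promoters), and the MEF2 motif was in none of the 6 (0.557%). Both strands were searched, and no 2 of these motifs overlapped in a printed window. The 250 bases before the start are printed, 5' to 3' on the strand of the gene, for Trim63, which held the FoxO motif (on the opposite strand), for Apobec2, which was lower in old mice, and for Acta1, which was not. Capitals mark the motifs, which are letter matches only. Trim63 lies at chr4:134314870-134315119 on the plus strand, Apobec2 at chr17:48432729-48432978 on the minus strand and Acta1 at chr8:123894776-123895025 on the minus strand.
Trim63: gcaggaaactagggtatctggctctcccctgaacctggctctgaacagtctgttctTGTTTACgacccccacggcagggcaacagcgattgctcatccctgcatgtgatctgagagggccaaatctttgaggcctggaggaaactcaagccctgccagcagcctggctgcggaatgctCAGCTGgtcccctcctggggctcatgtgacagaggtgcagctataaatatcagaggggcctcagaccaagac
Apobec2: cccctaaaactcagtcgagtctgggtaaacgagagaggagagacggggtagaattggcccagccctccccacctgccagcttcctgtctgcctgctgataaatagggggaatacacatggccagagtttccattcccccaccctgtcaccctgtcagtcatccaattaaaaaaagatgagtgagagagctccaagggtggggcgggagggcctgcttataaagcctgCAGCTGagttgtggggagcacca
Acta1: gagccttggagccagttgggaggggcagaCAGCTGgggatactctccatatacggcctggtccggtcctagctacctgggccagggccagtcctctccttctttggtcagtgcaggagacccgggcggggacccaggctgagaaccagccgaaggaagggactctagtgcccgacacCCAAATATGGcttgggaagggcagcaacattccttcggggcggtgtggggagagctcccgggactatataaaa

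The arrays were close to each other, with medians of 149.6 to 160.5 in arbitrary signal units and correlations of log2 signal between mice of 0.947 to 0.958. Of the 11 genes that define trachea, such as Krt5 of basal cells and Acan of cartilage, 10 lay above the median of every array and Nkx2-1 below it. The genes that define a fast fibre did not stand out in the same way. Of 24 further fast fibre genes, 16 lay below the median of all 8 arrays and 15 had a mean signal under 100. Among these were the fast myosin heavy chains, with Myh1 at 49.5 to 98.2, Myh2 at 5.35 to 10.9 and Myh4 at 47.0 to 68.2 over the 8 mice. Neb (13.3 to 40.9), the sarcomere ruler nebulin, and Myod1 (33.8 to 86.7), the master regulator of myoblasts, were also dim. Other muscle genes were divided: of 17 measured sarcomere genes, 8 lay below the median of every array and 6 lay above it. Among these 6 were the Z-disc gene Ldb3 (1872 to 2763), the M-band gene Myom1 (829.9 to 1336) and Tcap (457 to 1422), all 3 picked after their values were seen. Tnnt3 and Tnni2 reached the 91.9th and 92.9th percentile of an array. Since the markers of a fast fibre went both ways, the genes are called by their names here and not as a cell type. The files hold no detection calls, so a dim probe set could not be called absent. In whole tissue, fewer cells of a type and less RNA per cell cannot be told apart.

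**Figure D1:**
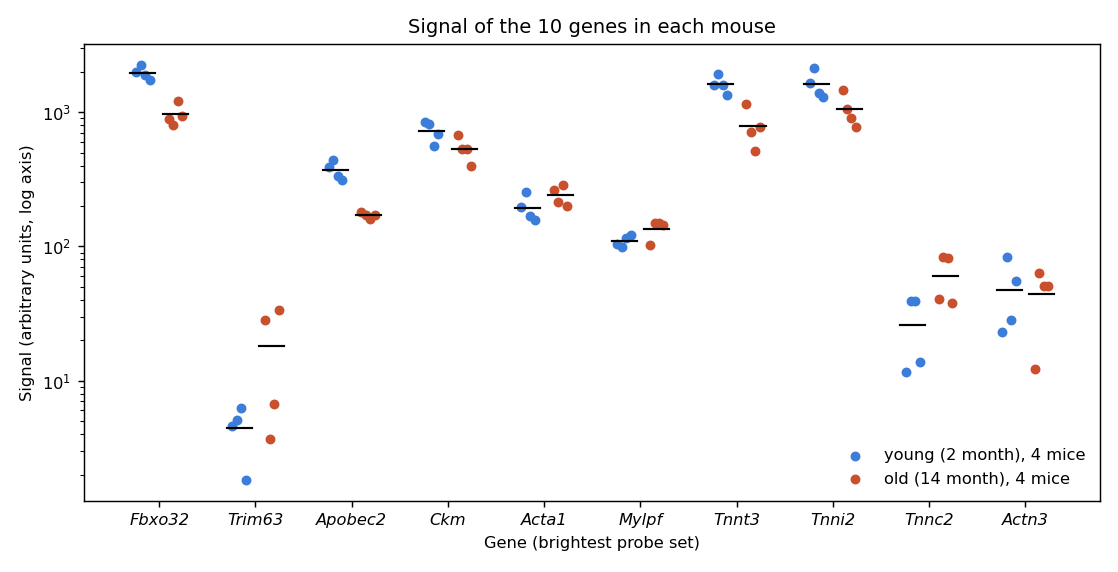
Signal of the brightest probe set of each of the 10 genes (y axis, arbitrary units, log axis), 1 point per mouse for 4 young and 4 old mice, with the mean of each age as a bar. The old mice lie below all young mice in Fbxo32, Apobec2 and Tnnt3, the ages overlap in the other 7 genes, and Trim63, Tnnc2 and Actn3 are dim.

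Fbxo32 was lower in every old mouse than in any young mouse in all 3 of its probe sets. The brightest read 894, 809, 1206 and 934 in old mice 1, 2, 5 and 6 and 2003, 2255, 1891 and 1728 in young mice 3, 4, 7 and 8. The means were 960.7 ± 172 and 1969 ± 221 (SD, n = 4 each), a log2 fold change of old over young of -1.04 (SE 0.147) or 2.06-fold higher in young. Old mouse 5 was the highest of the old and still lay well under the lowest young mouse. The second probe set read 851, 756, 669 and 859 in old mice against 1702, 1856, 1385 and 1055 in young mice, which is a log2 fold change of -0.91 (SE 0.191). Here young mouse 8 came closest to the old mice, and old mouse 5 was the lowest of all instead of the highest of the old. The dimmest of the 3 read 342, 294, 263 and 336 against 624, 664, 435 and 408, a log2 fold change of -0.76 (SE 0.190), again with every old mouse below every young mouse. Within mice 1 to 4 the brightest probe set gave -1.32 and within mice 5 to 8 -0.77, a division by mouse number that the labels do not call a batch.

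Apobec2 differed by a similar amount in 1 of its 2 probe sets. The brighter one read 179.8, 173, 159 and 171 in old mice and 392, 442, 333 and 312 in young mice. The old mice were nearly alike (171 ± 8.49, SD, n = 4) and the young mice more spread (369.8 ± 58.8), and the log2 fold change was -1.10 (SE 0.126), or 2.15-fold higher in young. Within mice 1 to 4 it was -1.24 and within mice 5 to 8 -0.96. The other probe set read 89.9, 69.1, 80.1 and 102 in old mice and 142, 84.2, 56.4 and 69.8 in young mice, below the array median in every mouse. Its log2 fold change was 0.03 (SE 0.283) and the ages overlapped, so the pair of probe sets disagreed. The mean of both gave Apobec2 a log2 fold change of -0.54.

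Trim63, the partner of Fbxo32 in muscle wasting, had a single and very dim probe set. It read 28.5, 3.71, 6.70 and 33.6 in old mice and 4.61, 5.13, 6.30 and 1.82 in young mice, never above the 15.7th percentile of its array. Old mice 1 and 6 stood above the rest, while old mouse 2 lay among the young mice. The log2 fold change of 1.61 (SE 0.784) shrank to 0.02 once signals under 32 were raised to 32. At this brightness no level of Trim63 could be compared between the ages.

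The fast troponins did not move as a group. Tnnt3, the fast troponin T that ties the complex to tropomyosin, read 1142, 712, 512 and 776 in old mice and 1600.0, 1926, 1592 and 1337 in young mice. Every old mouse lay below every young mouse, with old mouse 1 nearest to the young, and the means were 785 ± 263 and 1614 ± 241 (SD, n = 4 each). Its log2 fold change of -1.09 (SE 0.242) was about that of Fbxo32 and Apobec2. Tnni2, the fast inhibitory subunit, read 1454, 1062, 899 and 775 in old mice and 1647, 2144, 1390.1 and 1301 in young mice. The means differed by a log2 fold change of -0.64 (SE 0.235), but old mouse 1 lay above young mice 7 and 8. A further probe set of Tnni2, whose suffix marks probes that may bind other transcripts, gave -0.62 (SE 0.217), and the third was very dim, with signals of 3.77 to 31.2 and a log2 fold change of -0.32 (SE 0.624). Tnnc2, the fast calcium-binding subunit, read 40.4, 83.0, 82.0 and 37.6 in old mice and 11.6, 39.1, 38.9 and 13.8 in young mice. It had the opposite sign to Tnnt3 and Tnni2 (log2 fold change 1.35, SE 0.508), with overlap, and it was below the median of every array.

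The remaining fibre genes differed less between the ages, and all of them overlapped. Ckm, the enzyme that buffers ATP in working muscle, read 671, 529, 532 and 396 in old mice and 852, 819, 555 and 688 in young mice. Its log2 fold change was -0.46 (SE 0.199), with old mouse 1 above young mouse 7, while its second, dimmer probe set gave 0.26 (SE 0.275). Acta1, the actin of the skeletal thin filament, read 262, 215, 284 and 199 in old mice and 195, 255, 169 and 157 in young mice, which is a log2 fold change of 0.32 (SE 0.187). Mylpf read 102, 149, 149 and 143 in old mice and 105, 98.2, 115 and 123 in young mice, which is a log2 fold change of 0.29 (SE 0.151). Old mouse 1 alone kept the ages from separating in Mylpf. Actn3, a Z-disc protein of fast fibres, read 12.2, 63.8, 50.5 and 50.4 in old mice and 23.0, 83.7, 28.5 and 55.5 in young mice, which is a log2 fold change of -0.15 (SE 0.623).

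**Figure D2:**
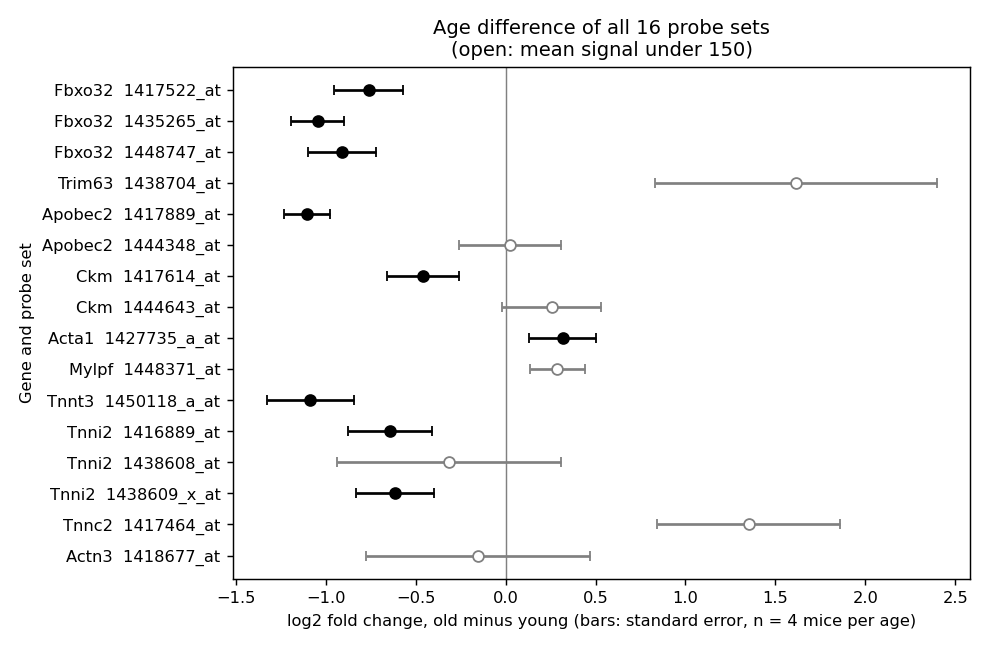
Log2 fold change of old over young mice (x axis) for each of the 16 probe sets of the 10 genes (y axis), with the standard error as a bar (n = 4 mice per age), open points for a mean signal under 150. The filled points of Fbxo32, Apobec2 and Tnnt3 lie between -1.10 and -0.76, those of Ckm and Tnni2 between -0.64 and -0.46, and that of Acta1 at 0.32.

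Counted together, 5 of the 16 probe sets had every old mouse below every young mouse, 3 of them of Fbxo32, 1 of Apobec2 and 1 of Tnnt3. None had every old mouse above, and 11 overlapped. Over all 45037 probe sets these shares were 3.75% below and 4.05% above. By gene, taking the brightest probe set of each, 3 of 10 lay below, 0 above and 7 overlapped, against 5.11% of all genes below and 5.02% above. At an adjusted p under 0.05 in limma, 1 member probe set (Apobec2) was lower, as were 0.0178% of all probe sets. Over genes, Fbxo32 and Apobec2 were lower and no member was higher, beside 0.181% of all genes lower and 0.368% higher. Leaving out any 1 of the 8 mice left no member probe set and 0 to 1 member genes past that threshold. Nothing is read from these counts, since the same contrast chose the genes. The median log2 fold change was -0.31 over the 10 genes, 6 of them negative and 4 positive, and -0.0047 over all genes.

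To set Fbxo32 and Apobec2 against the fibre genes within each mouse, the log2 signals of the 7 fibre genes were each centred on their mean over the 8 mice and averaged to a fibre score. The score was -0.16, 0.16, 0.07 and -0.18 in old mice and -0.19, 0.45, -0.03 and -0.12 in young mice. The ages overlapped, and old minus young was -0.05, since the lower Tnnt3, Tnni2 and Ckm were offset by Acta1, Mylpf and Tnnc2. Centred Fbxo32 minus the score was -0.45, -0.92, -0.25 and -0.37 in old mice and 0.75, 0.27, 0.50 and 0.46 in young mice, a difference of -0.99 with no overlap. Centred Apobec2 minus the score was -0.32, -0.70, -0.72 and -0.36 in old mice and 0.84, 0.37, 0.45 and 0.44 in young mice, a difference of -1.05 with no overlap. With the score as a covariate in limma, the log2 fold changes were -1.03 (SE 0.143) for Fbxo32 and -1.08 (SE 0.116) for Apobec2. Since the 7 genes ran both ways and the score hardly differed between the ages, taking it off had to return nearly the whole difference, so these values do not settle whether the pair went with or apart from the fibre genes.

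Which fibre genes entered the score decided how much of the difference remained. Against a score of the brighter Ckm, Tnnt3 and Tnni2, the differences were -0.32 for Fbxo32 and -0.37 for Apobec2. Against the 4 brighter fibre genes (those 3 and Acta1, at or above the median probe set) they were -0.58 and -0.64. Against a score of Acta1, Mylpf, Tnnc2 and Actn3 they were -1.50 and -1.55. The split into Ckm, Tnnt3 and Tnni2 and the other 4 was made after the values were seen. Tnnt3 itself, set against the score of the other 6 fibre genes, differed by -1.20 with no overlap, and Tnni2 by -0.69 and Ckm by -0.47, both with overlap. Ckm, Tnnt3 and Tnni2 had lower means in old mice, so taking off their score had to remove part of the difference. With age means removed, Pearson's r with Tnnt3 was -0.27 for Fbxo32 and 0.62 for Apobec2, and neither passed adjustment (exact permutation). In the age contrast that chose the genes, the brightest probe sets of Fbxo32, Apobec2 and Tnnt3 were lower in every old mouse. Tnni2 and Ckm had lower means with overlap. Of the other 4 fibre genes, Mylpf, Tnnc2 and Actn3 lay below the median of every array, which leaves Acta1 (0.32, with overlap) as the one brighter gene without that sign. Apobec2 itself was near that line: its brighter probe set was above the median in 7 of the 8 arrays and at the 49.8th percentile at its lowest.

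**Figure D3:**
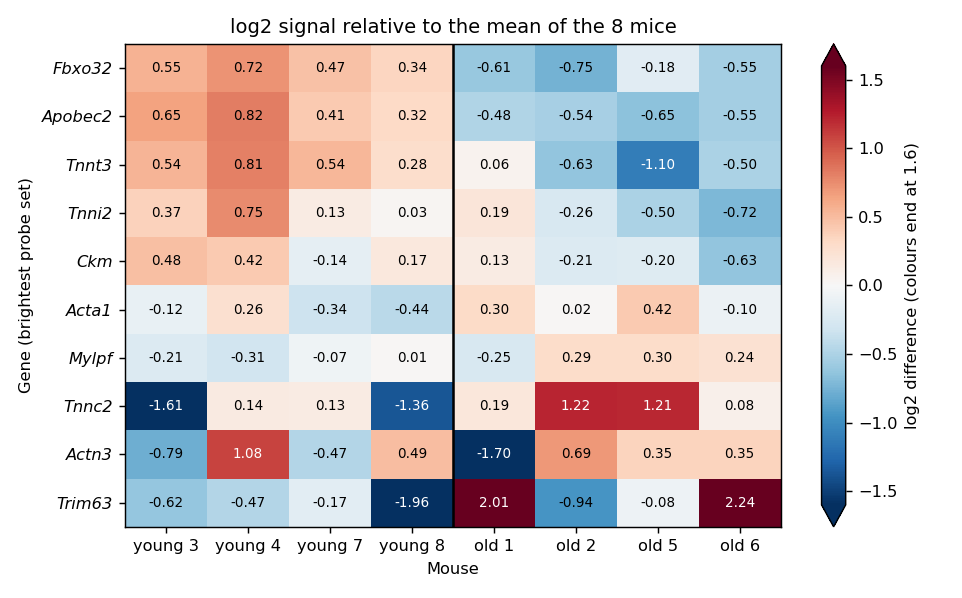
Log2 signal of each gene (rows, brightest probe set) in each mouse (columns, young left and old right of the line), relative to the mean of the 8 mice, with the value printed in each cell and colours that end at 1.6. Fbxo32, Apobec2 and Tnnt3 are positive in every young mouse, old mouse 1 is close to the mean in Tnnt3 (0.06), and Acta1, Mylpf and Tnnc2 run the other way in most mice.

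Single mice did not keep 1 rank through the genes. Young mouse 4 was the highest of all mice in Fbxo32, Apobec2, Tnnt3 and Tnni2, and young mouse 3 was so in Ckm. Old mouse 5 was the lowest in Apobec2 and Tnnt3, but the highest of the old mice in the brightest probe set of Fbxo32. Old mouse 6 was the lowest in Tnni2 and Ckm. Within the ages, each gene was set against the mean of the fibre genes other than itself, with age means removed, over the 8 mice (10 relations, exact permutation within ages, two-sided). For Fbxo32, Pearson's r was 0.38 (p = 0.314, adjusted 0.857) and Spearman's rho 0.07 (permutation p = 0.884, adjusted 0.977). For Apobec2, r was 0.49 (permutation p = 0.429, adjusted 0.857) and rho 0.17 (p = 0.767, adjusted 0.959). Without old mouse 2 and young mouse 4, farthest from the median of the score, r was 0.69 for Fbxo32 and -0.65 for Apobec2. No relation of the 10 passed at an adjusted permutation p under 0.05, and 8 mice could show only strong ones.

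The other muscle genes were compared by lists drawn up by function, with each gene's adjusted p from limma over all 18193 genes. Of the 24 further fast fibre genes none passed, 5 were lower and 0 higher at an unadjusted p under 0.05 (7.28% of all genes were lower and 7.31% higher at that threshold, with which each such count below is to be read), 15 were negative and 9 positive, and the median log2 fold change was -0.25. Casq1, the calcium store protein of fast fibres, read 238, 197, 235 and 177 in old mice and 387, 357, 323 and 239.6 in young mice, which is a log2 fold change of -0.62 (SE 0.172, adjusted p = 0.169 in limma) with old below young. Pfkm, the muscle phosphofructokinase, was also lower in each old mouse (-0.28, SE 0.0814, adjusted p = 0.172), as was the dim Sypl2 (-1.31, adjusted p = 0.208), and Eno3, the muscle enolase, gave -0.31 with overlap (adjusted p = 0.226). The summed signal of the 24 genes was 3676 to 3776 in old mice and 4288 to 4743 in young mice, which did not overlap. That sum is carried by its brightest genes, such as Eno3 (mean 1138 in old and 1412 in young mice), since 15 of the 24 had a mean under 100.

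Slow fibre and sarcomere genes were divided in sign, and most cardiac genes were negative. Of 16 slow fibre genes none passed (1 lower and 0 higher unadjusted), 9 were positive and 7 negative, and the median was 0.08. Myh7, the slow myosin heavy chain, gave -0.43 (adjusted p = 0.242). Of 17 measured sarcomere genes none passed (2 lower and 2 higher unadjusted), with a median of 0.03. Synpo2l, a Z-disc actin bundler, read 211, 309, 255 and 413 in old mice and 537, 592, 530.4 and 584 in young mice, which is a log2 fold change of -0.96 (SE 0.195, adjusted p = 0.0870). Tcap, which caps titin at the Z-disc, was likewise lower in each old mouse (-0.73, SE 0.246, adjusted p = 0.237), while Actn2, the actinin of all striated fibres, was higher in each (0.25, adjusted p = 0.341). Of 11 measured cardiac genes none passed (0 lower and 1 higher unadjusted), 9 were negative, as were 9277 of all 18193 genes, and the median was -0.09. Nppb, the gene higher unadjusted, gave 0.44 with overlap (adjusted p = 0.271). Tnnt2, the cardiac troponin T, gave -0.24 with overlap (adjusted p = 0.349).

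**Figure D4:**
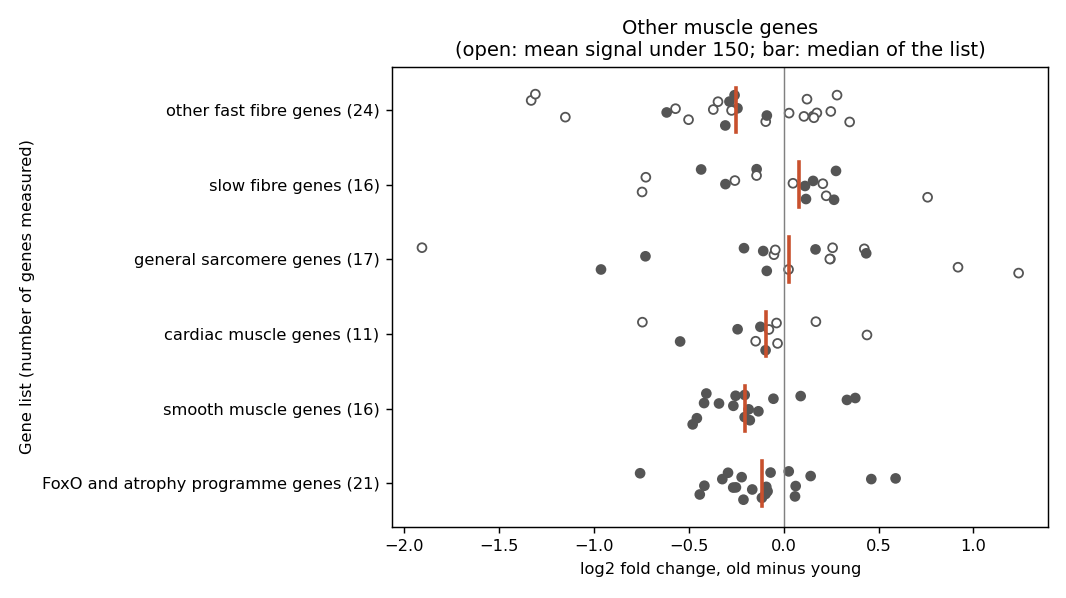
Log2 fold change of old over young mice (x axis) for each measured gene of 6 lists (y axis), with open points for a mean signal under 150 and the list's median as a vertical bar. The medians lie between -0.25 (other fast fibre genes) and 0.08 (slow fibre genes), and most fast fibre points are open.

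Regulators upstream of the fibre genes came next. Of 14 measured myogenic regulators and satellite cell genes none passed (2 lower and 0 higher unadjusted), with a median of 0.12. Both lower genes were MEF2 factors, which act with the myogenic factors on muscle promoters. Mef2c read 869, 928, 974 and 1022 in old mice and 1623, 1919.96, 1517 and 1229.7 in young mice (log2 fold change -0.71, SE 0.137, adjusted p = 0.0781), with old below young. Mef2d was also lower in each old mouse (-0.31, adjusted p = 0.170) and Mef2a gave -0.13 with overlap (adjusted p = 0.463). The dim Myog had the opposite sign (0.65, adjusted p = 0.387), with overlap. Of 12 genes of the neuromuscular junction and denervation none passed (0 lower and 1 higher unadjusted), with a median of 0.08. The dim Chrna1, a subunit of the muscle acetylcholine receptor, gave 1.46 (SE 0.503, adjusted p = 0.249).

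The pathway around Fbxo32 was compared in the same way. Of 11 measured muscle ubiquitin ligases and SCF partners none passed (0 either way unadjusted), with 7 positive, 4 negative and a median of 0.02. The F-box proteins Fbxo31 and Fbxo30 gave -0.29 and 0.31 (adjusted p = 0.394 and 0.436). Among 21 measured genes of the FoxO and atrophy programme 1 passed, lower in old mice, beside 0.181% of all genes (4 lower and 0 higher unadjusted). Of the 21, 15 were negative and 6 positive, and the median was -0.11. The gene that passed was Pik3ip1, an inhibitor of PI3 kinase. It read 638, 697, 679.9 and 852 in old mice and 1174, 1353, 1098 and 1198 in young mice, which is a log2 fold change of -0.76 (SE 0.112, adjusted p = 0.0439 in limma) with old below young. The call was lost with mouse numbers 1 to 4 and 5 to 8 as blocks (adjusted p = 0.0678), with the fibre score as a covariate (0.0820) and in an ordinary test without moderation (0.0606). The call held in limma with a trended and robust prior variance (0.0029), the brighter probe sets alone (0.0065) and signals raised to 32 (0.0293). It also held with median centring (0.0408), the mean of all probe sets (0.0409), no probe sets with a suffix for shared probes (0.0486) and quantile normalization (0.0494). Without any single mouse other than old mouse 6 it no longer passed (adjusted p = 0.0805 to 0.124 in limma), and without old mouse 6 it did (0.0408). Ccng2, a FoxO-induced cyclin, was lower in each old mouse (-0.32, adjusted p = 0.155), and Foxo4 gave -0.29 (adjusted p = 0.286) and the autophagy gene Map1lc3b -0.22 (adjusted p = 0.301), both with overlap. Of 15 glucocorticoid response genes none passed (1 lower and 1 higher unadjusted), with a median of 0.25. In this list Lcn2, which is also an inflammatory gene, had every old mouse above every young mouse (1.86, SE 0.418, adjusted p = 0.111), and the glucocorticoid targets Klf9 and Sgk1 gave -0.30 and 0.29 with overlap (adjusted p = 0.278 and 0.364). In 12 of these 15 genes, counted after the values were seen, both young mice 3 and 4 lay below both young mice 7 and 8, and in 1 above. Fkbp5, a classic glucocorticoid target, read 883 and 971 in young mice 3 and 4 and 2229 and 3496 in young mice 7 and 8, with 1974, 2671, 2256 and 1370.1 in old mice, and Tsc22d3, another, read 2416 and 3127 against 7001 and 9910.1. Apobec2 and all 3 probe sets of Fbxo32 divided the same young mice the other way, with 3 and 4 higher. So did the brightest probe sets of Tnnt3 (1600.0 and 1926 against 1592 and 1337), Tnni2 (1647 and 2144 against 1390.1 and 1301), Ckm (852 and 819 against 555 and 688) and Acta1 (195 and 255 against 169 and 157). Mylpf had 3 and 4 lower, and Tnnc2, Actn3 and Trim63 did not divide them. The share of all genes that divide these young mice in either direction was not counted, so nothing is read from these counts. The part of this division in the age difference was not tested. The relatives of Apobec2 differed little: Apobec1 gave -0.10 (SE 0.0636), Apobec4 -0.14 (SE 0.143) and Apobec3 0.02 (SE 0.198), none of 3 passing at either threshold.

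Markers of other cell types in the dissected tissue were compared too, and their part in the result was not tested. All 16 smooth muscle genes lay above the median of all arrays. None passed in limma (9 lower and 0 higher unadjusted), 13 were negative, 4 had every old mouse below every young mouse (5.11% of all genes did), and the median was -0.20. Their summed signal was 114638 to 129846 in old mice and 130327 to 149043 in young mice, which did not overlap. Myh11, the smooth muscle myosin, gave -0.41 (SE 0.0981, adjusted p = 0.127) and Mylk, its light chain kinase, -0.20 (adjusted p = 0.219), each with old below young. Set against the smooth muscle genes in place of the fibre genes, a choice made after the values were seen, Fbxo32 differed by -0.87 and Apobec2 by -0.93. Of 8 measured genes of the oesophageal squamous lining none passed (0 lower and 1 higher unadjusted), with a median of 0.36 and sums of 3099 to 5214 in old and 2398 to 2718 in young mice. Krt4, a keratin of that lining, read 1574, 1091, 1927 and 1095 in old mice and 515, 611, 369 and 667 in young mice (1.39, SE 0.252, adjusted p = 0.0682), above in each old mouse. The sum of this list is carried by Krt4 and Mal (mean 1890 in old and 1468 in young mice), since 4 of the 8 had a mean under 100.

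Brown fat markers were high in single old mice. The 7 measured brown fat genes summed to 1309 to 5426 in old and 1681 to 1985 in young mice, and Ucp1, which defines brown fat, read 13.6, 1399.97, 53.4 and 669 in old mice and 48.4, 40.9, 96.1 and 165 in young mice. None of these genes, of 6 fat cell genes or of 8 thymus genes passed (0 lower and 0 higher unadjusted in brown fat and in fat, 0 lower and 2 higher in thymus), with medians of 0.22, -0.21 and 0.26. The fat genes summed to 14159 to 30586 in old and 22095 to 33017 in young mice, the highest being a young mouse, and the thymus genes to 402 to 927 and 333 to 465. Rag1, of developing lymphocytes, was at 429 in old mouse 6 and at 46.2 or less in the others, while Foxn1, of the thymus epithelium, read 103, 103, 125 and 93.4 in old mice and 63.0, 62.4, 69.0 and 96.1 in young mice (0.57, adjusted p = 0.171). In Fbxo32 and Apobec2 the signals of old mice 2 and 6, which were high in Ucp1, overlapped those of old mice 1 and 5. Among the trachea genes none passed (2 lower and 1 higher unadjusted), with a median of -0.11. There Krt5 was higher in each old mouse (0.31, adjusted p = 0.192) and Acan lower in each (-0.56, adjusted p = 0.188).

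The genes most like the pair in pattern were named from 9097 genes of at least median signal, by Pearson's r over the 8 mice with the age means removed, as a description. For Fbxo32 they were Rfx1 (0.98), Tpm3, AI661453, Zfp329, Ric8a and Mapkapk2 (0.94). Tpm3, a slow fibre tropomyosin that many other cells also make, had an r of 0.96. For Apobec2 they were Stmn1 (0.98), Sfrp1, Fkbp2, Rcn3, Sox4 and B3gnt9 (0.95). For the fibre score they were C1s1 (0.96), Nme2, Tti1, Fbxo17, Rab12 and Id2 (0.91). The 3 sets had no gene in common and held none of the 10 genes, which were left out of the search. With 8 mice and this many genes searched, values of this size are what a ranking returns, and nothing is read from them.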

How the data were processed

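RNA of 8 mice was hybridised to 1 array each. The authors deposited an intensity per probe set on a linear scale, whose mean without the top and bottom 2% was 500.002 on every array. The methods name robust multichip analysis in Partek, whose output is usually log2. The labels give Partek alone, so how the intensity was made is not settled. Here the intensity was taken to log2 without further normalization, floor or filter. The 64 control probe sets were left out. Of the remaining 45037, 34945 carry 1 symbol in the platform annotation, 932 several and 9160 none. A gene is read by its brightest probe set with that symbol alone. The ages were set against each other in limma 3.58.1 under R 4.3.3 (lmFit and eBayes, two-sided, Benjamini-Hochberg over all probe sets or all genes, threshold 0.05), and correlations by exact permutation in Python 3.11.15. The steps were tested on simulated data. The members and gene lists were chosen with earlier results of these data known. From each list the genes named are those past the threshold and up to 4 with the smallest p. The limma p-values set an age difference against the spread between these mice, with the variance moderated over all probe sets or genes. The correlation p-values come from permuting mice within an age. The number of mice limits the precision of both. With 1 array per mouse, the spread between mice and that between arrays cannot be told apart. Alternatives covered the arrays left out, normalization, test, floor, probe sets and score.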

Additional observations from a re-analysis of the deposited data

Results flagged for a closer look

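Of 32 groups of 4 mice (16 probe sets at 2 ages), 4 held a mouse whose distance from the nearest other mouse took up more of the group's range than Dixon's critical value for 4 mice allows. Chance flags about 1 in 20 groups. Old mouse 1 was low in Mylpf, with 102 where the other old mice read 143 to 149, and low in Actn3, with 12.2 where they read 50.4 to 63.8. In the dimmest probe set of Tnni2, old mouse 2 was low at 3.77 and young mouse 7 high at 31.2. None of these was a probe set of Fbxo32, Apobec2 or Tnnt3.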

How the results depend on the processing

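Leaving out each mouse in turn left 0 member probe sets lower, 0 to 1 member genes lower, 0 to 2 listed genes lower (2 without old mouse 6, with Synpo2l added), and 3 to 24 of all genes lower and 8 to 24 higher, where the full set of mice gave 1, 2, 1, 33 and 67. Over the same settings the difference from the fibre score stayed between -1.07 and -0.85 for Fbxo32 and between -1.12 and -0.94 for Apobec2. An ordinary test without moderation gave 0 member probe sets, 1 member gene and 0 listed genes lower, with 40 of all genes higher. Mouse numbers 1 to 4 and 5 to 8 taken as blocks gave 0, 1 and 0, with 42 higher. The fibre score as a covariate gave 0, 0 and 0, with 3 of all genes lower and 6 higher. A trended and robust prior variance gave 4 member probe sets lower, 4 listed genes lower and 1 higher, and 217 of all genes lower and 270 higher. The brighter probe sets alone gave 4 member probe sets lower, 4 listed genes lower and 2 higher, and 205 of all genes lower and 237 higher. There the fibre score lost its dim genes, and the differences were -0.58 for Fbxo32 and -0.64 for Apobec2. Raising signals under 32 to 32 gave 2 member probe sets lower, 109 of all genes lower and 143 higher, and a difference of 0.14 for Trim63. Without probe sets whose suffix marks shared probes, 0 member probe sets were lower. The share of all probe sets was not counted in any of these settings, so nothing is read from the member counts. Averaging every probe set of a gene gave 0 member genes lower, 11 of all genes lower and a difference of -0.55 for Apobec2, whose dim probe set then counts. A fold above 2 with an unadjusted p under 0.05, as in the methods, gave 3 member probe sets lower and 1 higher. By gene, Fbxo32, Apobec2 and Tnnt3 were lower and 1 member gene was higher (the dim Tnnc2). This rule also gave 4 listed genes higher, and 107 of all genes lower and 202 higher. Chosen after seeing the data, a score of Ckm, Tnnt3 and Tnni2 gave -0.32 and -0.37 for Fbxo32 and Apobec2, and one of Acta1, Mylpf, Tnnc2 and Actn3 gave -1.50 and -1.55. Except where given here, the cause was not tested. No paired analysis was possible because the groups share no mouse number. Dim probe sets were less precise: the median SD within an age was 0.157 on the log2 scale for brighter and 0.491 for dimmer probe sets.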

Other observations

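Among the 45 pairs of the 10 genes, looked at after the values were seen and with age means removed, none passed Benjamini-Hochberg adjustment (exact permutation within ages, two-sided, 8 mice). Mylpf and Tnnt3 came closest and ran opposite ways, with Pearson's r = -0.88 (permutation p = 0.00174, adjusted 0.0781) and Spearman's rho = -0.90 (permutation p = 0.00347, adjusted 0.156). Without old mouse 1 and young mouse 4 that r was -0.50. Apobec2 and Tnnt3 had r = 0.62 (permutation p = 0.00868, adjusted 0.176) and rho = 0.69 (permutation p = 0.0208, adjusted 0.281), with r = 0.58 without young mice 4 and 8. Apobec2 and Tnni2 had r = 0.75 (permutation p = 0.0139, adjusted 0.176) and rho = 0.74 (permutation p = 0.0312, adjusted 0.281), with r = 0.58 without young mice 4 and 8. Fbxo32 and Acta1 had r = 0.76 (permutation p = 0.0347, adjusted 0.246) and rho = 0.62 (permutation p = 0.132, adjusted 0.481), with r = 0.38 without old mouse 5 and young mouse 4. Apobec2 and Acta1 had r = 0.67 (permutation p = 0.116, adjusted 0.476) and rho = 0.69 (permutation p = 0.139, adjusted 0.481), with r = 0.07 without young mice 4 and 8. Fbxo32 and Apobec2 had r = 0.30 (permutation p = 0.455, adjusted 0.787) and rho = 0.31 (permutation p = 0.444, adjusted 0.938), with r = 0.66 without old mouse 5 and young mouse 4. Fbxo32 and Tnnt3 had r = -0.27 (permutation p = 0.637, adjusted 0.909) and rho = 0.05 (permutation p = 0.944), with r = 0.50 without the same mice. Other pairs also had an unadjusted permutation p under 0.05 for r. They were Mylpf and Tnni2 (r = -0.86, permutation p = 0.0156, adjusted 0.176), Apobec2 and Mylpf (r = -0.64, permutation p = 0.0226, adjusted 0.203) and Ckm and Tnni2 (r = 0.82, permutation p = 0.0382, adjusted 0.246).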
